A study of Rattus norvegicus with 16 samples.

Results

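Targretin, the trade name of bexarotene, is a synthetic agonist of the retinoid X receptors (RXRs). Its effect on the liver was read by setting 4 arrays of rats on a Targretin diet against 4 arrays of rats on the same diet without a compound, 8 of the 16 arrays of the series, chosen from the array titles. All animals were female Sprague-Dawley rats and the livers were taken at 5 weeks of age. The Targretin group received 150 ppm in a Teklad mash (4%) diet for 7 days, the UAB30 and MeUAB30 groups received 200 ppm for 7 days, and the Control group received the mash with no compound for a period not stated in the labels used here. UAB30 and MeUAB30 (4-methyl-UAB30 in the title of the series) are other RXR agonists, and their 8 arrays serve below to estimate the spread between arrays and for values set side by side. Each compound was given in 1 diet, so an effect of the diet batch and an effect of the compound cannot be told apart. The labels do not say that each array is a separate animal, and p-values measure only the spread between arrays, which may be technical.

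RXRs bind DNA mostly as one member of a pair, with partners that include the fatty acid sensor PPAR-alpha, the oxysterol receptors (LXRs), the bile acid receptor FXR, the xenobiotic receptors CAR and PXR, the retinoic acid receptors and the thyroid hormone receptors. Pairs with PPAR-alpha, LXR and FXR can be switched on by the RXR ligand alone, so one RXR agonist can reach the targets of several partners. In patients, bexarotene is known for raising plasma triglycerides and for lowering thyroid hormone through the pituitary.

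Values are log2(intensity + 1), where the intensity of a probe set (the probes for a short stretch of a gene) is the deposited one and a gene's value summarises its probe sets. Of 14839 named genes, 12156 had a probe set bright enough to be tested. A gene is said to rise or fall with Targretin where its limma p-value, adjusted over all genes tested, was under 0.05. The median log2 change of all genes was -0.01 and the median standard error (SE) of a change was 0.17. Array medians lay between 22.2 and 23.8, and the 8 arrays correlated pairwise at 0.902 to 0.980. Targretin 2 and Control 3 stood apart, with mean correlations to the other arrays of their group of 0.929 and 0.925 and narrower ranges of intensity. They gave the lowest value of their group for several genes named below.

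Targretin changed 265 genes (2.18% of those tested), of which 184 rose (1.51%) and 81 fell (0.666%). At a change of 1.5-fold or more there were 231 (1.90%). Among these, 62 rose and 19 fell by at least 2-fold, and 10 rose and 3 fell by at least 4-fold. The 4 Targretin arrays lay wholly above or wholly below the 4 Control arrays for 648 genes (5.33%), 251 of them among the 265. Without Targretin 2 and Control 3 the count was 346, with 236 higher and 110 lower, and 235 of the 265 genes were among them. With each array's range of intensity as a covariate the balance turned, with 390 higher and 902 lower among 1292 changed genes, and all 265 were among these. Of the 256 changed genes with more than 1 probe set, 222 had every probe set moving in the direction of the gene.

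**Figure D1:**
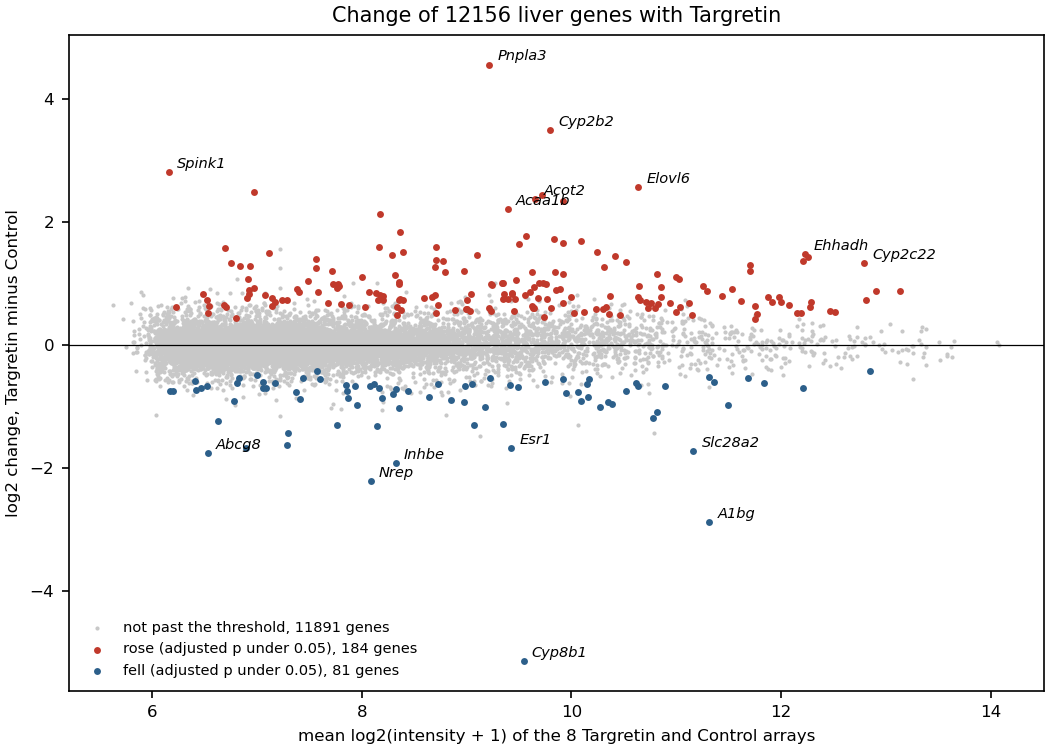
Each point is 1 of 12156 genes. The horizontal axis is the mean log2(intensity + 1) over the 8 arrays, the vertical axis is the log2 change (Targretin minus Control), and colour marks the 184 genes that rose and the 81 that fell. Pnpla3 lies highest at 4.57 and Cyp8b1 lowest at -5.14.

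The largest increase of all genes tested was in the acylglycerol lipase and acyltransferase Pnpla3, a lipid droplet protein. Pnpla3 read 11.21, 12.31, 11.10 and 11.36 on the Targretin arrays, against 6.81, 6.83, 6.89 and 7.18 on the Control arrays. The groups lay far apart, and the spread within each was small beside the distance between them. The log2 change was 4.57 (SE 0.26, 23.7-fold, adjusted p = 2.12e-08), and all 13 probe sets of the gene moved the same way.

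Genes that build fatty acids rose in each of 4 lists, from regulators and carbon supply to carboxylation and elongation. Of 14 tested regulators, 4 rose and none fell, with a median log2 change of 0.15, against 1.51% rising and a median of -0.01 over all genes tested. Insig1, which retains the sterol sensor SCAP in the endoplasmic reticulum and is itself a SREBP target, read 12.96, 13.12, 12.86 and 12.99 with Targretin, against 11.54, 11.79, 11.31 and 11.53 in Control. The 4 Targretin arrays kept within a narrow band above every Control array, and the log2 change was 1.44 (SE 0.13, adjusted p = 3.13e-06). Srebf1, which encodes the SREBP transcription factor of fatty acid synthesis, read 10.94, 11.15, 10.32 and 11.36 with Targretin, against 9.34, 9.96, 9.55 and 9.85 in Control. Its groups did not overlap, although Targretin 3 came close to the highest Control array. Thrsp and Mid1ip1, a pair of related proteins that promote lipogenesis, rose by 1.37 and 0.78 on the log2 scale. The call of Mid1ip1 was lost without any 1 of Targretin 1, Targretin 4, Control 1 and Control 3 (adjusted p up to 0.147 over all alternatives). Srebf2, the SREBP gene of cholesterol synthesis, differed by -0.02 (adjusted p = 0.993), and the LXR gene Nr1h3 by 0.24 (adjusted p = 0.792), and both had overlapping groups.

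Of 10 genes that supply acetyl-CoA and NADPH, 4 rose and none fell (median 0.31). Acly splits citrate into acetyl-CoA in the cytosol, and it read 12.36, 12.35, 12.14 and 12.60 with Targretin, against 11.24, 11.09, 10.75 and 11.14 in Control. Me1, the malic enzyme that yields NADPH, read 11.12, 11.04, 11.07 and 11.13 with Targretin, against 8.75, 9.07, 8.25 and 8.91 in Control. The Targretin arrays of Me1 agreed closely, while the Control arrays spread widely with Control 3 lowest, and the groups of both genes were far apart. The log2 changes were 1.31 (SE 0.19) for Acly and 2.35 (SE 0.20) for Me1. Tkt, a transketolase of the pentose phosphate pathway, rose by 0.79, whereas the cytosolic isocitrate dehydrogenase Idh1 (-0.01) and pyruvate carboxylase Pc (-0.06) did not pass the test. The remaining member that rose was Pdha1, described below with pyruvate entry.

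In the list of acyl-CoA carboxylation and activation, 4 of 8 rose and none fell (median 0.53). Both acetyl-CoA carboxylases were among them. Acaca, the cytosolic form that makes malonyl-CoA for synthesis, read 11.03, 11.22, 11.04 and 11.28 with Targretin, against 9.98, 9.66, 9.21 and 9.94 in Control. Acacb, the mitochondrial form whose product restrains carnitine palmitoyltransferase 1, read 10.52, 10.43, 10.38 and 10.43 with Targretin, against 9.34, 9.28, 8.84 and 9.52 in Control. For both genes Control 3 was the lowest array, every Targretin array lay above every Control array, and the changes were 1.44 and 1.19 (adjusted p = 7.01e-05 and 0.000147). Aacs, which activates acetoacetate for lipid synthesis, rose by 1.37 and the long-chain acyl-CoA synthetase Acsl5 by 0.53.

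Elongases and desaturases had 5 of 10 members that rose and none that fell (median 0.47). Elovl6, which lengthens saturated fatty acids made by synthesis, read 11.79, 11.71, 11.82 and 12.38 with Targretin, against 9.61, 9.33, 8.83 and 9.63 in Control. Its groups were far apart, with Targretin 4 the highest array. The stearoyl-CoA desaturase Scd rose by 1.51, the desaturases Fads2 and Fads1 of polyunsaturated fatty acids by 0.88 and 0.71, and their elongase Elovl5 by 0.54. Fasn, Mlxipl and Acss2 were not analysed here.

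The start regions of these genes were searched for 6 short motifs in the RefSeq promoter table (build GRCr8, 250 bases before to 50 after the start). The table held 17 of the 21 genes that rose in these lists and in the triglyceride assembly list below, and 33469 promoters in all, and both strands were searched. The E-box CACGTG, a sequence that SREBP1 and other helix-loop-helix factors can bind, stood in 2 of the 17 (Elovl5 and Insig1), against 6.42% of all promoters. The sterol regulatory element TCACNCCAC stood in 0 of the 17 (1.12% of all promoters) and the CCAAT box CCAAT in 8 (37.5%). The direct repeat of AGGTCA with 1 spacer base (DR1, at most 1 mismatch in each copy), the form PPAR-alpha and RXR bind, stood in 1 of them (Acly, 2.26% of all promoters), and in 2 of 11 genes that rose in the peroxisomal and PPAR-alpha lists below (Acot8 and Crat). Such repeats with 4 or 5 spacer bases stood in 0 and 1 of the 17, against 1.74% and 1.64% of all promoters. In the same 11 genes the CCAAT box stood in 9, the sterol regulatory element in 1 (Ehhadh) and the E-box in 0. The table also held 9 genes that rose in the CAR and PXR list below, and the E-box stood in 2 of these and DR1 in 0. A match says only that these letters are present. The promoters of Insig1 and Acot8 are shown because each holds one such motif close to the start of a gene that rose in every alternative tried. The capitals mark the E-box in Insig1 (chr4:8057720-8058019, minus strand) and the repeat in Acot8 (chr3:173962139-173962438, minus strand), each written 5′ to 3′ along the gene.
Insig1: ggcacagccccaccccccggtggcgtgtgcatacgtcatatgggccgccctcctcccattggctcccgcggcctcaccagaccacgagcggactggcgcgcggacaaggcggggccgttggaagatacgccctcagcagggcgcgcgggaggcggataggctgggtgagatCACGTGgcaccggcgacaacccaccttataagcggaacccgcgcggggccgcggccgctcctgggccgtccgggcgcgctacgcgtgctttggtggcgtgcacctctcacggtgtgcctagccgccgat
Acot8: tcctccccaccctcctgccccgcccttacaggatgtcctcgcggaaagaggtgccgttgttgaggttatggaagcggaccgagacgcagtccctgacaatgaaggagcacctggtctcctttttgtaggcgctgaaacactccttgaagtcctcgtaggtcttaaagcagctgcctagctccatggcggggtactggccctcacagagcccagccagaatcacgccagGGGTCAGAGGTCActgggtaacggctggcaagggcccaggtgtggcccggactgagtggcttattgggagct

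**Figure D2:**
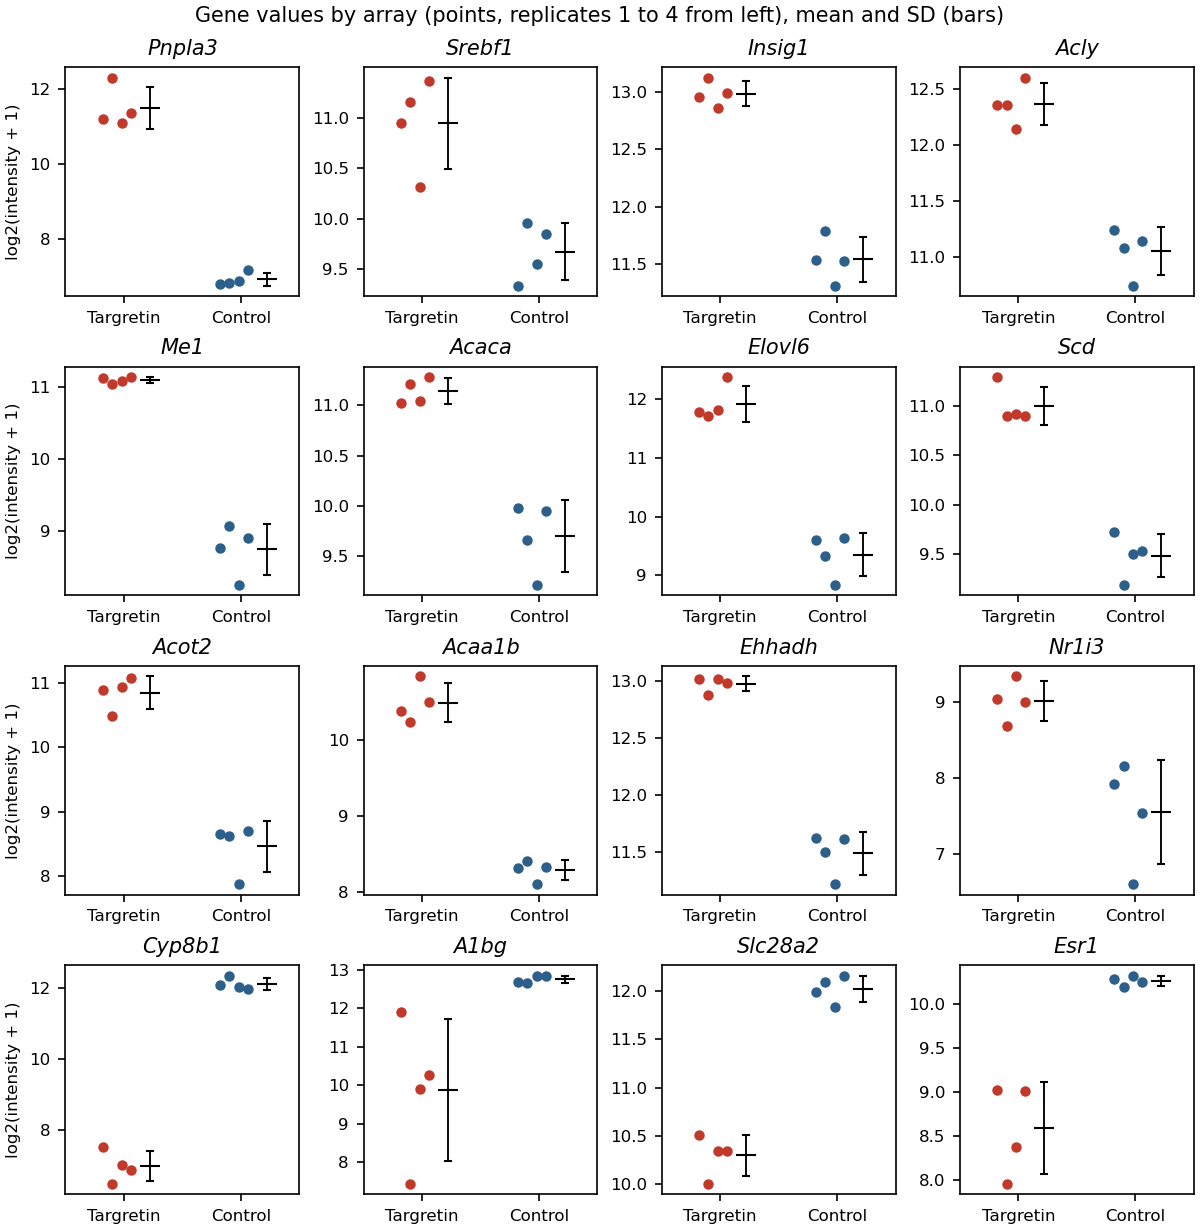
Each panel shows 1 gene as log2(intensity + 1) on the 4 Targretin arrays (left, red) and the 4 Control arrays (right, blue), with the replicate number running from left to right and bars for mean and SD. The groups do not overlap in any panel. The Targretin arrays of A1bg run from 7.44 to 11.91, while its Control arrays lie between 12.65 and 12.84.

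Genes of triglyceride assembly rose in part. Of 14 tested, 4 rose and 1 fell (median 0.32). Gpd1, which makes glycerol 3-phosphate from a glycolytic intermediate, read 11.96, 11.93, 11.97 and 12.12 with Targretin, against 11.23, 11.09, 10.89 and 11.08 in Control. Gk, the kinase that makes the same product from free glycerol, read 10.52, 9.90, 10.32 and 10.37 with Targretin, against 11.47, 11.46, 11.06 and 11.45 in Control. The groups of neither gene overlapped, and the log2 changes were 0.92 for Gpd1 (adjusted p = 0.000919) and -1.08 for Gk (adjusted p = 0.000345). Dgat2, which adds the last acyl chain, rose by 0.78, and the phosphatidate phosphatase Lpin2 by 0.93. The other terminal acyltransferase, Dgat1, differed by 0.20 (adjusted p = 0.818), with overlapping groups. Gpam, the first acyltransferase of the pathway, rose by 0.80 at an adjusted p of 0.0471, a call lost without any 1 of 7 of the 8 arrays.

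Lipid droplet proteins and lipases, Pnpla3 included, had 2 of 16 that rose and 1 that fell (median 0.08). The coat protein Plin2 differed by 0.23 (adjusted p = 0.776) and the droplet protein Cidec by -0.11 (adjusted p = 0.906). Lysosomal acid lipase, Lipa, read 11.56, 11.46, 11.54 and 11.58 with Targretin, against 12.28, 12.19, 11.92 and 12.21 in Control, and fell by 0.62 on the log2 scale, a call lost without Control 1. Among 14 genes of fatty acid uptake and binding 3 rose (1 to 4 over the alternatives), with the uptake receptor Cd36 at 1.08 (adjusted p = 0.00372, not called with a lower filter or none on dim probe sets), and the binding protein Fabp1 differed by 0.10 (adjusted p = 0.919).

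Genes of triglyceride-rich lipoproteins showed no such shift: 1 of 18 rose and 1 fell (median -0.06). Apob, the structural protein of very low density lipoprotein, read 13.29, 13.02, 13.15 and 13.22 with Targretin, against 13.29, 13.18, 13.16 and 13.36 in Control, and the groups overlapped (log2 change -0.08, adjusted p = 0.909). Apoa5, an activator of lipoprotein lipase, differed by -0.24 (adjusted p = 0.518), and Angptl4, an inhibitor of that lipase, by -0.06 (adjusted p = 0.980). The member that rose was Apoa2 at 0.62 (adjusted p = 0.0124), a protein of high density lipoprotein, and its call was lost without Targretin 4. Apoc3, Mttp and Apoa1 were not analysed here.

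Part of the genes that break fatty acids down rose as well. Peroxisomal oxidation had 8 of 25 tested members that rose and none that fell (median 0.36). Acaa1b, a peroxisomal thiolase, read 10.39, 10.25, 10.85 and 10.51 with Targretin, against 8.31, 8.41, 8.09 and 8.32 in Control. Its groups lay far apart, and the change was 2.22 (SE 0.15, 4.64-fold, adjusted p = 1e-07). Ehhadh, the bifunctional enzyme of hydration and dehydrogenation, read 13.02, 12.88, 13.01 and 12.98 with Targretin, against 11.62, 11.50, 11.22 and 11.62 in Control. The acyl carnitine transferases Crat and Crot, which handle short and medium chains leaving the peroxisome, rose by 1.65 and 1.47. Crat read 10.46, 10.02, 10.32 and 10.53 with Targretin, against 8.73, 8.84, 8.16 and 8.98 in Control. The auxiliary reductase Decr2 rose by 1.06, the isomerase Ech1 by 1.0, the transporter Abcd3 by 0.96 and the thioesterase Acot8 by 0.89. Catalase, Cat, differed by 0.14 (adjusted p = 0.713), and the branched-chain oxidase Acox3 by -0.38 (adjusted p = 0.0978).

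Outside the peroxisome, 4 of 25 other PPAR-alpha targets rose (median 0.18). The largest changes were in the acyl-CoA thioesterases Acot2, of mitochondria, and Acot1, of the cytosol. Acot2 read 10.88, 10.49, 10.93 and 11.08 with Targretin, against 8.65, 8.62, 7.88 and 8.70 in Control, with Control 3 well below its group. Acot1 read 9.48, 8.69, 9.27 and 9.51 with Targretin, against 7.06, 7.42, 6.66 and 7.26 in Control. The log2 changes were 2.38 for Acot2 and 2.14 for Acot1, and probe sets of these near-identical genes may read both. Vnn3, at 0.87 (adjusted p = 0.0271), and the kinase gene Pdk4, described below, also rose. The count that rose ran from 3 to 6 over the alternatives. Several other genes did not pass the test. Cyp4a1, a fatty acid omega-hydroxylase, differed by 0.18 (adjusted p = 0.896, 1 probe set), the hormone gene Fgf21 by 0.46 (adjusted p = 0.505) and Ppara itself by 0.64 (adjusted p = 0.121).

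Mitochondrial oxidation gave 4 of 27 that rose and 1 that fell, while 23 of the 27 had a positive change (median 0.31). Over all genes tested, 5888 of 12156 had a positive change. Without Targretin 2 and Control 3, 9 rose and 1 fell, and over all alternatives 4 to 11 rose. Eci1, an isomerase for unsaturated chains, read 10.58, 10.40, 10.84 and 10.98 with Targretin, against 8.95, 9.45, 8.93 and 8.54 in Control, and rose by 1.73. Acaa2, the thiolase of the last step, rose by 0.96. The medium-chain acyl-CoA synthetase Acsm5 rose by 1.22 and its relative Acsm3 by 2.49, and the Control level of Acsm3 lay under the brightness threshold, so the size of its change is uncertain. Cpt1a, the outer-membrane transferase that admits long chains, read 9.93, 9.27, 9.99 and 9.35 with Targretin, against 10.98, 10.65, 10.20 and 10.33 in Control. Targretin 1 and Targretin 3 came close to Control 3 for this gene, and the fall of 0.90 (adjusted p = 0.0294) lost its call without any 1 of 4 arrays (Targretin 2, Targretin 4, Control 1 and Control 2, adjusted p up to 0.116 over all alternatives). The inner-membrane partner Cpt2 differed by 0.25 (adjusted p = 0.819).

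**Figure D3:**
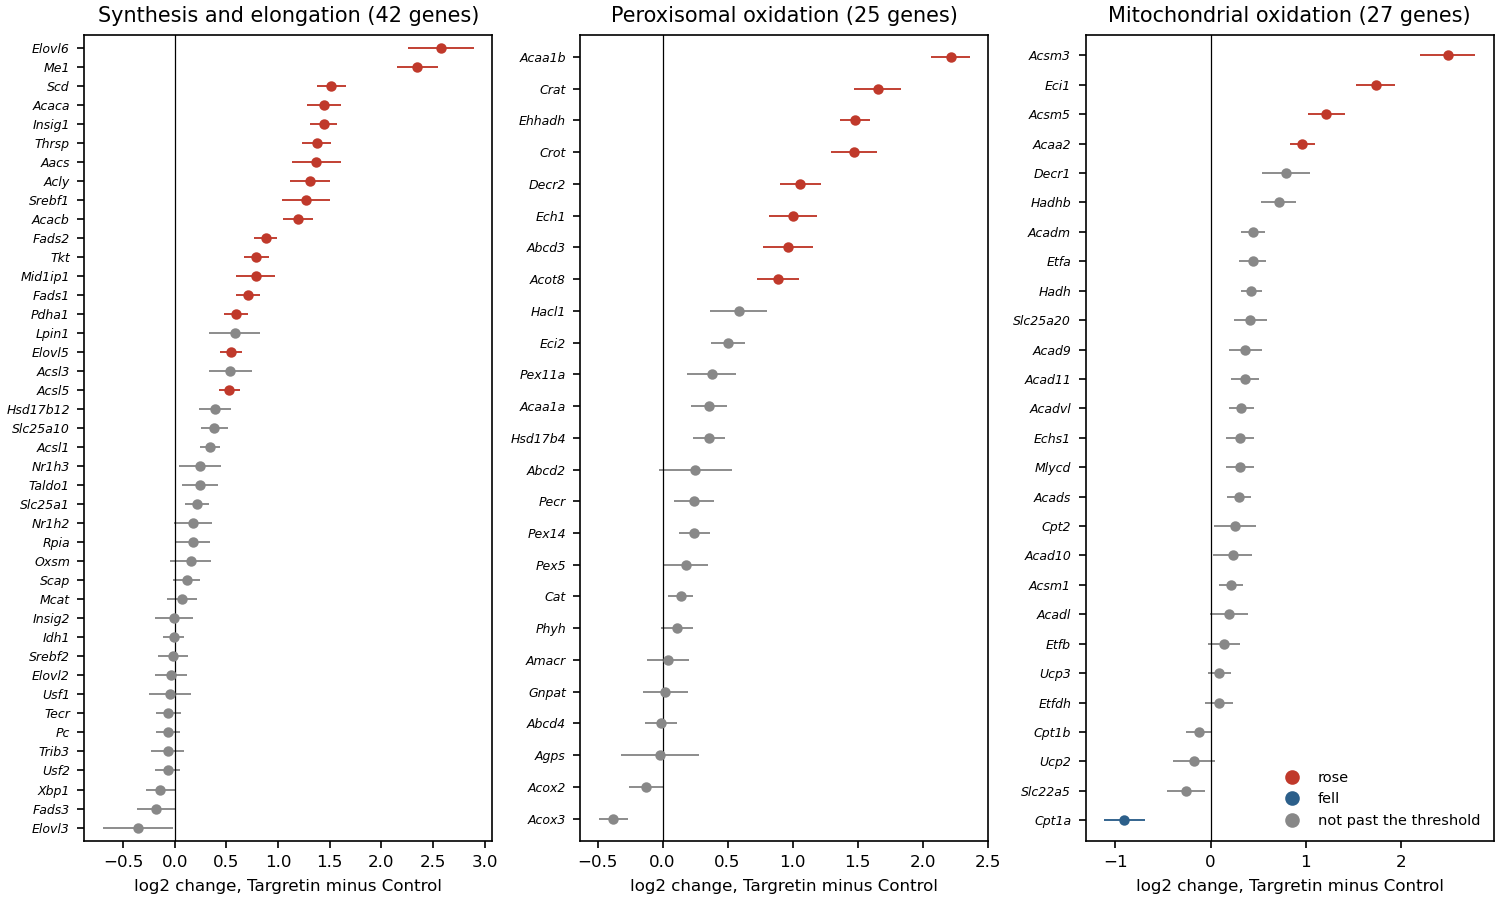
Log2 change (Targretin minus Control, horizontal axis) with its SE for each tested gene of the 4 synthesis lists (42 genes), of peroxisomal oxidation (25) and of mitochondrial oxidation (27), ordered by size. Red genes rose, blue genes fell and grey genes did not pass the threshold. In the oxidation panels Cpt1a (-0.90) is the one gene that fell.

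Several genes at the entry of pyruvate into the citric acid cycle rose, for both the enzyme complex and the kinases that switch it off. Of 22 tested genes of pyruvate entry and the cycle, 6 rose and none fell (median 0.36), with 3 to 12 that rose over the alternatives. Dlat, the acetyltransferase core of pyruvate dehydrogenase, read 9.26, 9.40, 9.15 and 9.50 with Targretin, against 8.21, 8.23, 7.62 and 8.18 in Control. Control 3 lay apart below its group, and the groups did not overlap (log2 change 1.27, adjusted p = 0.00125). The complex's E1 subunits Pdhb and Pdha1 rose by 0.85 and 0.59. Pdk4, a kinase that inactivates the complex, read 11.35, 11.57, 11.44 and 11.25 with Targretin, against 10.32, 10.28, 10.03 and 10.31 in Control. Its relatives Pdk1 and Pdk2 rose by 1.15 and 0.68, and the 3 kinases had no overlap between groups. The kinases are counted in the glucose list below. Of the related enzymes in the cytosol, the malate dehydrogenase Mdh1 rose by 0.70 and the aconitase Aco1 by 0.60. Among mitochondrial enzymes of the cycle, the isocitrate dehydrogenase Idh2 rose by 0.63 (adjusted p = 0.0271), a call lost without any 1 of 5 arrays (Targretin 1, 3 and 4 and Control 3 and 4), while citrate synthase, Cs, differed by 0.04 (adjusted p = 0.982).

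Among 37 genes listed under glucose production, glycolysis and glycogen, 10 rose and none fell (median 0.25). The 3 kinases and the binding protein gene Igfbp1, described below, are included. The count that rose ran from 3 to 16 over the alternatives (8 without Targretin 2 and Control 3). The liver pyruvate kinase Pklr rose by 0.74 (adjusted p = 0.0133), glucose phosphate isomerase Gpi by 0.69 and liver glycogen phosphorylase Pygl by 0.69. The call of Pklr was lost without Targretin 4, and also without Targretin 2 and Control 3 together. The gluconeogenic gene Pck1 read 10.90, 11.24, 11.55 and 10.19 with Targretin, against 11.65, 11.67, 11.87 and 11.43 in Control. Its Targretin arrays spread widely and reached into the Control range (log2 change -0.68, adjusted p = 0.263). G6pc1, which releases free glucose, differed by 0.02 (adjusted p = 0.994).

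Of 20 drug-metabolism genes of CAR and PXR, 10 rose and 1 fell (median 0.63). Cyp2b2, a cytochrome P450 used in rats as the classical CAR target, read 11.96, 11.02, 11.10 and 12.09 with Targretin, against 8.03, 8.15, 6.89 and 9.12 in Control. Both groups spread widely and did not overlap, and the log2 change of 3.50 (SE 0.50, adjusted p = 0.000632) rests on 1 probe set, which may read other Cyp2b genes. The receptor gene Nr1i3, which encodes CAR, read 9.05, 8.69, 9.34 and 9.0 with Targretin, against 7.92, 8.15, 6.60 and 7.54 in Control. It was the 1 of 22 genes for RXRs and their partners that rose (log2 change 1.47, adjusted p = 0.00428), whereas Nr1i2, which encodes PXR, differed by -0.44 (adjusted p = 0.363). The P450 genes Cyp3a23-3a1 and Cyp3a2, targets of PXR, rose by 1.21 and 1.12, and probe sets of one may read the other. With no filter on dim probe sets the change of Cyp3a2 was 0.52 and its call was lost (adjusted p = 0.112). Por, the reductase that feeds electrons to P450 enzymes, rose by 0.95 and the conjugate exporter Abcc3 by 1.15. Glucuronosyltransferases Ugt1a1 (1 probe set) and Ugt1a5 rose by 0.74 and 0.79, and their shared exons mean that the probe sets may read both. Akr1b7, an aldo-keto reductase, was the member that fell, with 10.62, 9.72, 9.90 and 10.52 for Targretin, against 11.35, 11.44, 11.39 and 11.31 for Control (log2 change -1.18). Among 26 genes of the dioxin receptor and Nrf2 responses none rose and 1 fell. Cyp1a1, the leading dioxin receptor target, read 7.97, 5.62, 7.68 and 6.76 with Targretin, against 5.79, 6.28, 5.71 and 6.59 in Control, with overlapping groups (log2 change 0.92, adjusted p = 0.326). In the other hepatic P450 genes 2 of 24 rose and 1 fell. Cyp2c22, a P450 that oxidises retinoids in rats, rose by 1.33 (adjusted p = 3.03e-06), Cyp17a1, a steroid hydroxylase, by 1.60, and Cyp2t1 fell by 1.03.

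**Figure D4:**
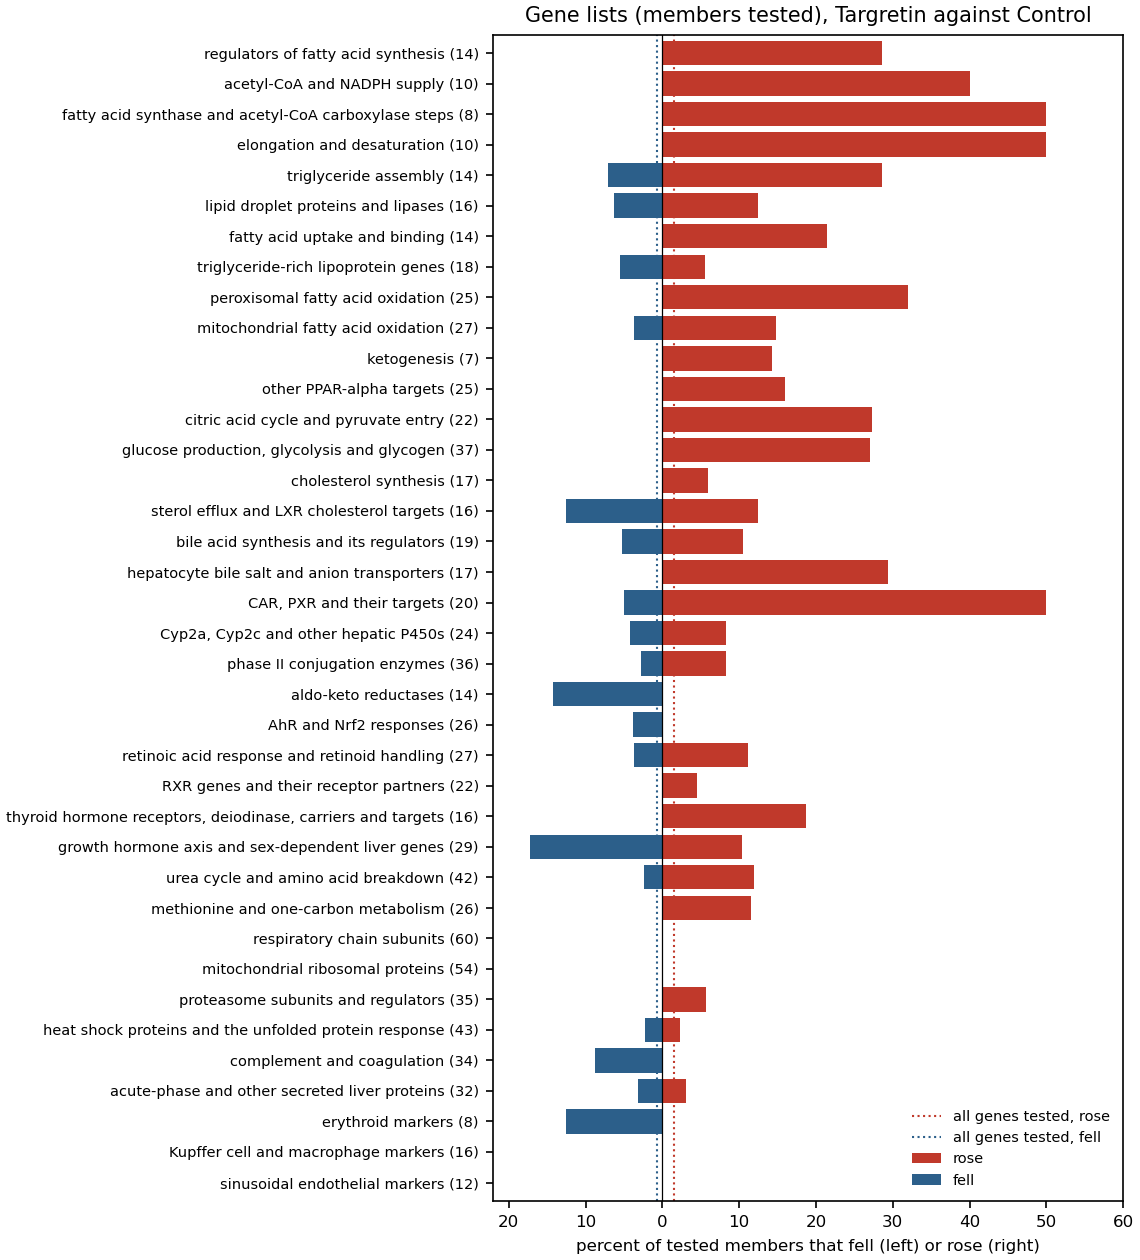
Percent of the tested members of each gene list that rose (red, to the right) or fell (blue, to the left) with Targretin, the number tested in parentheses. Dotted lines mark all genes tested, of which 1.51% rose and 0.666% fell. The lists of CAR and PXR targets, of acyl-CoA carboxylation and of elongation and desaturation reach farthest to the right, at 50% each.

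Of 42 genes of the urea cycle and amino acid breakdown 5 rose and 1 fell (median 0.17), with 1 to 12 that rose over the alternatives. Dbt, the acyltransferase of the branched-chain ketoacid dehydrogenase, read 10.30, 9.96, 10.44 and 10.30 with Targretin, against 9.57, 9.25, 8.88 and 9.33 in Control, without overlap (log2 change 0.99, adjusted p = 0.00126). Aass, the first enzyme of lysine breakdown, rose by 0.70, while the mitochondrial alanine aminotransferase Gpt2 fell by 0.78, a call lost without any 1 of 6 arrays (Targretin 1, 3 and 4 and Control 1, 2 and 4). Among 26 genes of methionine and one-carbon metabolism 3 rose (1 to 4 over the alternatives) and none fell (median 0.08), led by the folate enzyme Mthfd1, which read 10.38, 10.14, 10.49 and 10.40 with Targretin, against 9.66, 9.53, 9.18 and 9.37 in Control. All 31 probe sets of Mthfd1 moved the same way, and the log2 change was 0.92. Of 35 proteasome genes 33 had a positive change, against 5888 of 12156 genes tested, and 2 rose (median 0.36), with Psmd9 at 0.74. The summed intensities of the proteasome genes overlapped between groups, and the count that rose over the alternatives ran from 0 to 16. It was 5 without Targretin 2 and Control 3.

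The largest decrease of all genes tested was in Cyp8b1, an enzyme that directs bile acid precursors toward cholic acid. Cyp8b1 read 7.51, 6.49, 7.02 and 6.87 on the Targretin arrays, against 12.09, 12.35, 12.03 and 11.97 on the Control arrays. No array of either group came near the other group, and both probe sets of the gene fell (log2 change -5.14, SE 0.33, 35.2-fold lower, adjusted p = 6.56e-08). Cyp7a1, which controls the first step from cholesterol to bile acids, read 11.19, 11.53, 11.91 and 11.08 with Targretin, against 11.23, 11.77, 10.65 and 10.85 in Control. Those groups overlapped and the log2 change was 0.31, with a 95% interval from -0.51 to 1.12. Nr0b2, which encodes the repressor SHP and is induced by FXR, read 7.90, 8.25, 8.48 and 8.13 with Targretin, against 6.90, 7.09, 6.76 and 6.98 in Control. It rose by 1.25 (adjusted p = 0.000427), while Nr1h4, which encodes FXR, differed by -0.66 (adjusted p = 0.143). Of the 19 genes of bile acid synthesis and its regulators 2 rose and 1 fell (median 0.07).

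Hepatocyte transporters of bile salts and organic anions had 5 of 17 that rose and none that fell (median 0.13), with counts from 1 to 6 over the alternatives. The largest rise among them, 1.15, was that of Abcc3, described above with the CAR and PXR genes. Abcb11, the bile salt export pump, read 12.46, 12.46, 12.36 and 12.32 with Targretin, against 12.08, 11.61, 11.53 and 11.78 in Control, and rose by 0.65. Slc10a1, the uptake carrier of bile salts, rose by 0.51 (adjusted p = 0.0386), a call lost without any 1 of 6 of the 8 arrays. The sterol exporter Abcg8 read 5.36, 5.60, 5.70 and 5.93 with Targretin, against 7.82, 7.78, 7.27 and 6.77 in Control. All its Targretin values lay under the brightness threshold of 6.01, so the size of the fall is uncertain. Of 17 genes of cholesterol synthesis 1 rose and none fell (median 0.06), and over the alternatives up to 4 rose and up to 4 fell.

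Genes of retinoid handling moved in part. Of 27 tested, 3 rose and 1 fell (median 0.04), with 1 to 7 that rose over the alternatives. Aldh1a1, which makes retinoic acid from retinal, read 10.39, 10.39, 10.59 and 10.44 with Targretin, against 8.61, 8.88, 8.91 and 8.31 in Control. The Targretin arrays agreed closely and lay above every Control array (log2 change 1.77, adjusted p = 0.000413). Cyp26a1, which degrades retinoic acid and is a classical target of its receptors, read 10.21, 9.64, 9.36 and 9.73 with Targretin, against 8.78, 8.73, 8.16 and 9.25 in Control. Targretin 3 came close to Control 4, and the rise of 1.0 (adjusted p = 0.0360) lost its call without any 1 of 5 arrays (Targretin 1, Targretin 4 and Control 1 to 3). Rarb, another retinoic acid target, differed by 0.53 (adjusted p = 0.0674). The member that fell was Lrat, by 0.75 (adjusted p = 0.0388), with all 6 probe sets lower and no overlap between groups. The count that fell ran from 0 to 4 over the alternatives. Cyp26b1 differed by -0.34 (adjusted p = 0.797), and its Targretin mean lay under the brightness threshold. The receptor genes Rxra and Rxrb differed by -0.11 and -0.26 (adjusted p = 0.837 and 0.605).

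Of 16 thyroid hormone genes 3 rose and none fell (median -0.05). They were Me1, Thrsp and the mitochondrial glycerol phosphate dehydrogenase Gpd2 (0.97, adjusted p = 0.0103), and the first pair also belong to the synthesis lists. Dio1, the deiodinase that responds to thyroid hormone in rat liver, read 8.93, 8.02, 8.65 and 8.63 with Targretin, against 8.91, 9.38, 8.55 and 9.19 in Control, with overlapping groups (log2 change -0.45, adjusted p = 0.472). The receptor genes Thra and Thrb differed by 0.09 and -0.11.

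Of 29 genes of the growth hormone axis and sex-dependent liver expression, 5 fell (17.2%, against 0.666% of all genes tested) and 3 rose (median 0.00). The count that fell ran from 1 to 7 over the alternatives. A1bg, a serum protein made more in female than in male rat liver, read 11.91, 7.44, 9.90 and 10.26 with Targretin, against 12.69, 12.65, 12.84 and 12.83 in Control. The Control arrays agreed closely, while the Targretin arrays spread widely with Targretin 2 lowest (log2 change -2.87, SE 0.57, adjusted p = 0.00965). In a model of the 8 arrays alone its adjusted p was 0.0934. Esr1, the oestrogen receptor alpha, read 9.02, 7.96, 8.37 and 9.01 with Targretin, against 10.29, 10.19, 10.32 and 10.25 in Control, and both of its probe sets fell. The log2 change of Esr1 was -1.67 (adjusted p = 0.000137). Onecut1, a transcription factor responsive to growth hormone, fell by 0.85 and the steroid reductase Srd5a1 by 0.43, and each of these calls was lost without any 1 of 4 arrays (Targretin 3 and Control 1, 3 and 4 for Onecut1, and Targretin 1 and 3 and Control 1 and 2 for Srd5a1).

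Binding proteins of insulin-like growth factors moved in both directions. Igfbp1, which fasting and low insulin induce, read 10.71, 11.11, 10.62 and 10.53 with Targretin, against 8.42, 9.67, 8.88 and 9.37 in Control. Igfbp2 read 9.19, 9.50, 9.51 and 9.39 with Targretin, against 8.25, 7.78, 8.04 and 8.01 in Control. Igfbp3, the main carrier in serum, read 7.53, 6.12, 7.24 and 7.56 with Targretin, against 8.49, 8.73, 8.29 and 8.12 in Control. None of the 3 genes had overlapping groups, and the log2 changes were 1.66, 1.38 and -1.30, the last not called in a model of the 8 arrays alone (adjusted p = 0.0712). Igf1 itself differed by -0.34 (adjusted p = 0.232), although its groups did not overlap.

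Several of the largest changes belonged to genes outside these pathways. Spink1, a secreted trypsin inhibitor, read 7.84, 6.54, 7.92 and 7.96 with Targretin, against 4.70, 5.16, 3.87 and 5.25 in Control. Its Control values lay under the brightness threshold, which leaves the size of the rise of 2.82 uncertain. Rgs16, a regulator of G protein signalling, read 10.69, 11.25, 10.81 and 11.01 with Targretin, against 8.95, 8.05, 8.32 and 8.66 in Control (log2 change 2.44). Ces2, a carboxylesterase, rose by 1.85, the persulfide dioxygenase Ethe1 by 1.69 and the stress-response gene Nupr1 by 1.60. Among genes that fell, Slc28a2, a concentrative nucleoside transporter, read 10.51, 10.01, 10.35 and 10.34 with Targretin, against 12.00, 12.10, 11.84 and 12.15 in Control. All 21 probe sets of Slc28a2 fell, with a log2 change of -1.72 (SE 0.15, adjusted p = 2.05e-06). Inhbe, which encodes the activin E subunit made by hepatocytes, read 7.85, 6.65, 7.42 and 7.53 with Targretin, against 9.47, 9.41, 8.95 and 9.29 in Control. Nrep fell by 2.21, Gas6, a ligand of the TAM receptor kinases, by 1.28 and the monooxygenase Fmo1 by 1.29.

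The tissue label was checked against markers. Of 12 tested hepatocyte markers none rose or fell (median -0.03), and their summed intensity ran from 95790 to 107500 on Targretin arrays and from 102500 to 109300 on Control arrays. Alb, which encodes albumin, read 14.01 to 14.21 with Targretin and 14.04 to 14.15 in Control. None of the 16 Kupffer cell, 10 lymphocyte, 8 neutrophil, 12 endothelial or 10 bile duct markers tested rose or fell. Of 13 stellate cell markers 1 rose and 1 fell (median -0.32). Among 8 erythroid markers 1 fell, the haemoglobin gene Hbb, which read 11.30, 10.37, 10.95 and 11.41 with Targretin, against 12.51, 12.01, 11.90 and 11.50 in Control. The summed intensity of the erythroid markers ran from 2159 to 3935 with Targretin and from 4147 to 7324 in Control, without overlap. Hbb is a large part of this sum, so the sum is no separate evidence for the 8 markers. Their median log2 change was -0.28, and 2 of them had a positive change. In bulk tissue, fewer cells of a type and less RNA per cell cannot be told apart. The call of Hbb (log2 change -0.98, adjusted p = 0.0302) was lost without any 1 of 5 arrays, and its part in the other results was not tested.

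Of 34 secreted complement and coagulation genes 3 fell with Targretin (8.82%, against 0.666% of all genes tested) and none rose (median -0.16). Their summed intensity ran from 103000 to 121100 with Targretin and from 122300 to 134800 in Control, and these ranges did not overlap. The brightest members weigh most in this sum. The members that fell were C1r, C8b and Cfi, by 0.60, 0.52 and 0.54 on the log2 scale. Each of their calls was lost without Control 1 or Control 2, and the count over the alternatives ran from 0 to 10 (4 without Targretin 2 and Control 3). Some large lists held no gene past the threshold. Of 60 respiratory chain subunits 57 had a positive change (median 0.21), and up to 14 rose over the alternatives. Of 63 cytosolic ribosomal proteins 59 were positive (median 0.20, up to 9 rose), and of 54 mitochondrial ribosomal proteins 46 (median 0.15, up to 7 rose). Over all genes tested, 5888 of 12156 were positive. The summed intensities of each of these lists overlapped between groups, with respiratory chain sums of 43600 to 58590 for Targretin and 40790 to 57170 for Control. With the range of intensity as a covariate, 3 respiratory chain genes and 0 of either ribosomal list rose. None of 30 cell cycle genes passed the test (median 0.04).

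The other compound diets give a scale for these changes, although their dose was 200 ppm and that of Targretin 150 ppm, and the 3 diets share the Control arrays. In the same model 150 of 12156 genes (1.23%) differed between Targretin and UAB30 and 684 (5.63%) between Targretin and MeUAB30. Pnpla3 averaged 11.50 ± 0.55 with Targretin, 7.13 ± 0.17 with UAB30, 7.74 ± 0.58 with MeUAB30 and 6.93 ± 0.17 in Control (mean and SD of 4 arrays). Acaa1b averaged 10.50 ± 0.26 with Targretin, 8.67 ± 0.17 with UAB30, 9.19 ± 0.24 with MeUAB30 and 8.28 ± 0.13 in Control. Targretin was higher than either compound in both genes, with the largest adjusted p of the 4 contrasts at 3.1e-05. Also higher with Targretin than with either compound were Elovl6, Me1, Scd, Ehhadh, Acot2, Acot1, Fads2, Fads1 and Crat, among others. Some lipid genes were not higher with Targretin than with MeUAB30. Thrsp averaged 12.90 with Targretin and 13.19 with MeUAB30 (adjusted p = 0.270), and Crot 9.83 and 10.23 (adjusted p = 0.223). Acaca differed between these diets by 0.25 (adjusted p = 0.462), and Decr2 was lower with Targretin by 0.60 (adjusted p = 0.0331). Slc28a2 averaged 10.30 ± 0.21 with Targretin, 12.06 ± 0.30 with UAB30, 12.77 ± 0.07 with MeUAB30 and 12.02 ± 0.14 in Control. It was lower on Targretin than on UAB30 by 1.76 (adjusted p = 2.15e-06) and than with MeUAB30 by 2.47 (adjusted p = 3.78e-08).

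Bile acid genes gave another order. Cyp8b1 averaged 6.97 ± 0.42 with Targretin, 10.83 ± 0.73 with UAB30, 7.05 ± 0.65 with MeUAB30 and 12.11 ± 0.17 in Control. Between Targretin and MeUAB30 the difference was -0.08, with an SE of 0.33. Nr0b2 averaged 8.19 ± 0.24 with Targretin, 6.76 ± 0.21 with UAB30, 8.33 ± 0.37 with MeUAB30 and 6.93 ± 0.14 in Control. Cyp7a1 averaged 11.43 ± 0.38 with Targretin, 9.08 ± 0.18 with UAB30, 9.36 ± 1.11 with MeUAB30 and 11.12 ± 0.49 in Control, and the adjusted p of Targretin against them was 0.00324 for UAB30 and 0.00372 for MeUAB30. Cyp26a1 averaged 9.73 ± 0.35 with Targretin, 9.38 ± 0.51 with UAB30, 12.95 ± 0.09 with MeUAB30 and 8.73 ± 0.45 in Control.

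**Figure D5:**
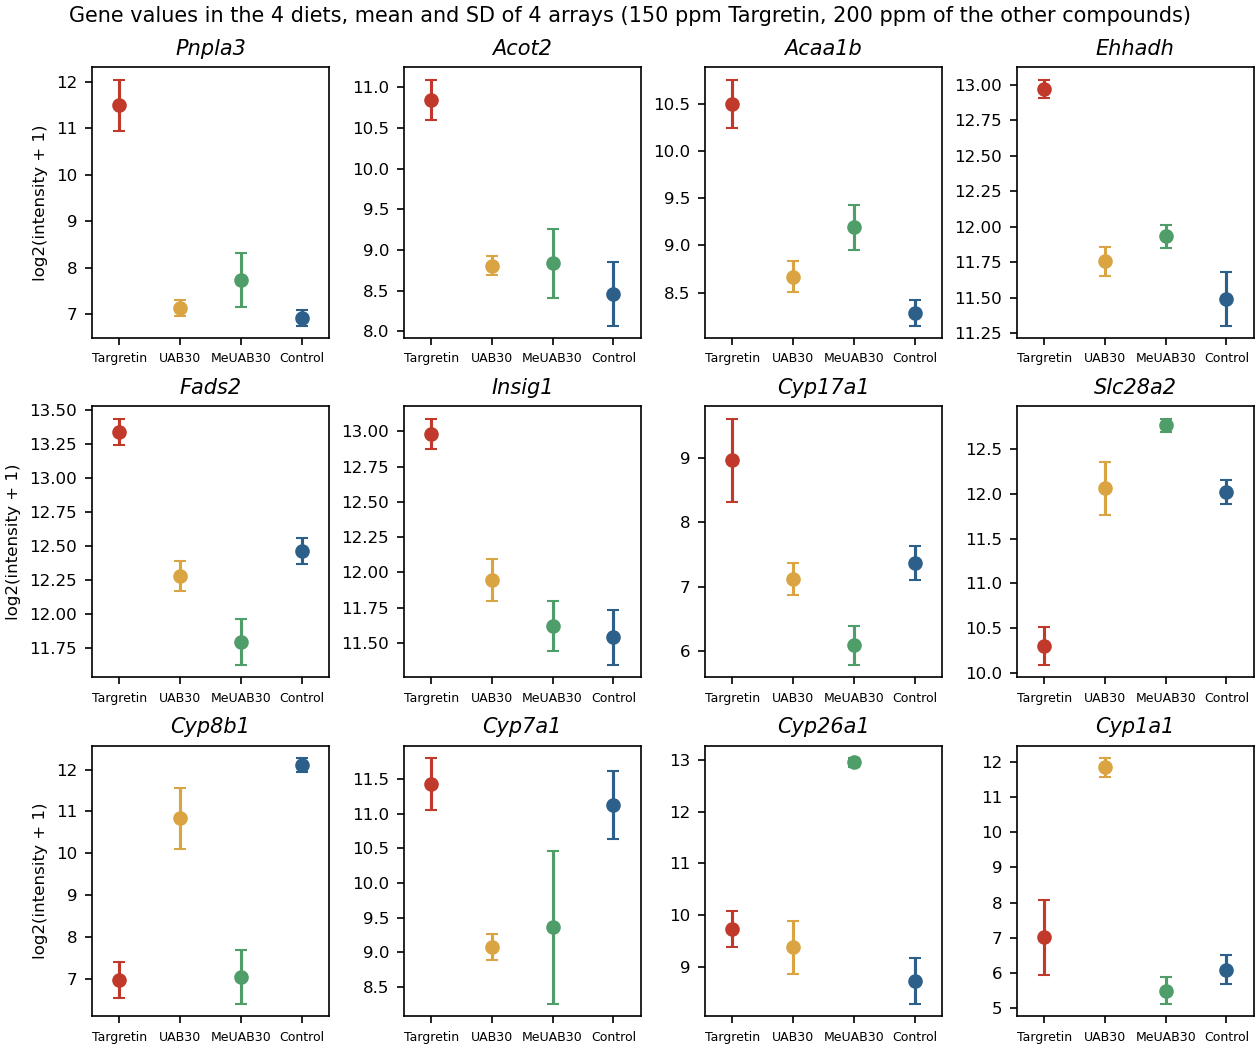
Mean and SD (4 arrays) of log2(intensity + 1) for 12 genes in the Targretin, UAB30, MeUAB30 and Control diets, from left to right, at 150 ppm Targretin and 200 ppm of the other compounds. Cyp8b1 is low with both Targretin (6.97) and MeUAB30 (7.05), whereas Pnpla3 is high with Targretin (11.50) and averages under 8 in each of the other diets.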

How the data were processed

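Liver RNA was read on Affymetrix whole-transcript exon arrays, 4 per diet. The values the authors deposited are linear intensities, 1 for each probe set on each array. The genome build is rn4 per the submitters' processing notes, and how probes were summarised, corrected and normalized is not given in the sources used here. Of 887828 probe sets, 177688 had exactly 1 gene symbol in the platform annotation (2920 had several and 707220 none), and symbols were updated through RefSeq (GRCr8). Intensities became log2(intensity + 1), which understates the changes of dim genes. Probe sets with a mean over the 16 arrays at or above the 75th percentile (log2 value 6.01, intensity 63.6) were kept and summarised per gene by median polish, with a median of 6 per gene. Precision is limited by the number of arrays, since no counts underlie array values.

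All 16 arrays, with a mean per diet, were fitted with limma 3.58.1 (R 4.3.3, data.table, version 1.17.8), tested on simulated data. Benjamini-Hochberg adjustment ran over all genes tested (threshold 0.05). Every adjusted p in the text is from this model unless it is said to come from an alternative. The 53 gene lists, the members and the alternatives were chosen with earlier results of these data known. The text names the 20 largest rises and 20 largest falls without overlap between groups, up to 6 changed members per list, and 85 fixed genes, of which 69 were tested. Not every one is described. Chosen after their values were seen were Idh1, Pc, Ech1, Abcd3, Cat, Acox3, Cpt2, Cs, Cyp3a2, Nr1h4, Onecut1 and Srd5a1 and, among the other observations, Irs3, Slc2a5, Slc39a5, Atp7b, Mmp2, Mmp14, Eln and Loxl4. The arrays were not paired by the replicate numbers of the titles. The alternatives varied normalization, pseudocount, filter, summary, model and the arrays used. Background correction could not be varied.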

Additional observations from a re-analysis of the deposited data

Results flagged for a closer look

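Within a group of 4 arrays, 1 array lay far from the other 3 for the genes below, by Dixon's criterion on the log2 intensities. Chance alone gives this in about 1 of 20 groups, and both groups of every named gene but Lrat, Vnn3 and Cyp26b1 were examined. Targretin 2 was the low array for most of them. It read 6.54 for Spink1 (the other Targretin arrays 7.84 to 7.96), 8.63 for Angptl4 (9.74 to 9.84), 7.14 for Dgat1 (7.85 to 7.98), 11.34 for Apoa5 (11.60 to 11.61) and 9.51 for Crot (9.93 to 9.96). The same array read 10.80 for Abcd3 (11.21 to 11.27), 13.32 for Cyp2c22 (13.49 to 13.51), 7.32 for Cyp2t1 (7.98 to 8.07), 6.47 for Thra (7.06 to 7.10) and 8.45 for Thrb (8.84 to 8.91). It also read 8.44 for the copper transporter gene Atp7b (8.69 to 8.74), 8.86 for Mmp14 (9.14 to 9.17) and 7.16 for Loxl4 (7.71 to 7.80).

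Control 3 was low for 5 genes. It read 11.06 for Gk (the other Control arrays 11.45 to 11.47), 7.88 for Acot2 (8.62 to 8.70), 7.62 for Dlat (8.18 to 8.23), 10.03 for Pdk4 (10.28 to 10.32) and 8.95 for Rarb (9.26 to 9.32). Control 2 was high for 4, at 9.39 for Ech1 (8.59 to 8.73), 11.79 for Slc10a1 (11.42 to 11.43), 9.83 for Ethe1 (9.01 to 9.12) and 8.48 for Nupr1 (7.67 to 7.77). Targretin 4 was high at 12.38 for Elovl6 (11.71 to 11.82) and 11.88 for Acaa2 (11.67 to 11.71), Targretin 1 at 11.29 for Scd (10.90 to 10.92), and Control 1 at 12.03 for Apoa5 (11.67 to 11.71).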

How the results depend on the processing

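Lrat, Vnn3 and Cyp26b1 were not followed over the 23 alternatives. Of the other genes named in the text as changed, 107 in all, 70 stayed past the threshold in every alternative. The remaining 37 lost the call in at least 1, and none changed sign. Of 32 named as not past the threshold, 9 passed in some. Of the 37, 16 lost it only where the model held the 8 Targretin and Control arrays, which has fewer arrays to estimate the spread. The counts moved more than the genes. Against 265 changed, 184 higher and 81 lower, that model gave 115, 88 and 27, median centring 474, 309 and 165, and array weights 761, 541 and 220. Leaving out the 4 arrays that stood apart (UAB30 3, MeUAB30 1, Targretin 2 and Control 3) gave 495, 336 and 159. With the intensity range of each array as a covariate the counts were 1292, 390 and 902, so the share higher was 30.2% against 69.4%. Quantile normalization gave 132 lower genes. The cause of these shifts was not tested.

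Leaving out 1 array in turn gave 172 to 402 changed genes, 112 to 326 higher and 40 to 114 lower. The counts moved by over 1.5 times without Targretin 2 (402 changed and 326 higher), Targretin 3 (119 higher), Targretin 4 (172 and 112 higher) and Control 1 (40 lower). Higher genes made up 81.1% of calls without Targretin 2 and 54.6% without Control 3. With the replicate number as a block 209 genes changed, 144 higher and 65 lower, 201 of them among the 265. Same-numbered Targretin and Control arrays correlated at 0.26, -0.50, -0.20 and 0.18 in their deviations. These values gave no clear sign of pairing by number. They cannot exclude it, since Targretin 2 and Control 3 stood apart under different numbers.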

Other observations

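Among genes that belong to no list described above, the insulin receptor substrate gene Irs3 read 8.12, 8.85, 7.99 and 8.30 with Targretin, against 7.20, 7.29, 7.07 and 6.89 in Control, and rose by 1.20 (limma, adjusted p = 0.000696). Slc2a5, the fructose transporter, read 7.44, 7.40, 7.24 and 7.61 with Targretin, against 6.11, 6.15, 5.86 and 6.21 in Control (log2 change 1.34, adjusted p = 0.00140). These Control values lay near the brightness threshold of 6.01, so the size of the rise is uncertain. Slc39a5, a zinc importer, rose by 0.77 and Atp7b, which exports copper to bile, fell by 0.66. In these 4 genes the groups did not overlap, as in 251 of the 265 changed genes.

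No list of extracellular matrix genes was tested. Among single genes chosen after their values were seen, the matrix metalloproteinases Mmp2 and Mmp14 fell by 0.66 and 0.65 on the log2 scale, elastin (Eln) by 0.55 and the lysyl oxidase relative Loxl4 by 0.66. The chemokine gene Cxcl12 read 9.91, 9.04, 10.01 and 10.13 with Targretin, against 10.71, 10.93, 10.64 and 10.81 in Control, and fell by 1.0 (limma, adjusted p = 0.00468). Targretin arrays lay below every Control array for each of these genes. Groups were separated for 251 of the 265 changed genes and for 5.33% of all genes tested. Separation therefore adds little for genes picked among those called. The calls of Mmp2, Eln and Loxl4 were lost without Control 1, and those of Mmp14 and Cxcl12 where the model held 8 arrays. The stellate cell markers tested with them, 13 genes, had a median of -0.32 and summed intensities of 3385 to 5026 with Targretin and 3992 to 5352 in Control, which overlap, and their part in these changes was not tested.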
